A study of Mus musculus with 14 samples.

Results

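The myogenic regulatory factors are the 4 muscle-specific basic helix-loop-helix transcription factors encoded by Myod1 (MyoD), Myog (myogenin), Myf5 and Myf6 (MRF4). They were found by their gene symbols in a table of 24016 RefSeq transcripts, and all 4 were present, 1 transcript each. RNA was sequenced from C2C12 cells, an established mouse myoblast line that exits the cell cycle and fuses into myotubes when serum is reduced. The cells were transfected with control siRNA (siCtrl) or with a pool of siRNAs against Klf5 (siKlf5), using RNAiMAX, and RNA was taken on days 0, 1, 2 and 3 of differentiation. Differentiation was induced with medium containing 2% horse serum, and all 8 groups were the same line, with no engineered allele named. 1 library was made from poly(A) RNA for each siRNA and day, so no group had a replicate.

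The factors bind DNA as dimers with E proteins, at E-box sequences in muscle genes. MyoD and Myf5 commit cells to the myoblast fate and are already present in dividing myoblasts. Myogenin is switched on when myoblasts leave the cell cycle and drives terminal differentiation, and MRF4 acts mostly in late differentiation and in mature fibers.

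Values are FPKM as deposited, that is, reads per kilobase of exon scaled to a set total of 1e+07 per library. Levels of different genes can thus be compared per length. This total is larger than that of FPKM in common use, so all values here are larger than common FPKM values. A cutoff at a given FPKM is therefore more lenient here than on the common scale. The reads behind each value were recovered from the table. Recovered depth ranged from 7850497 reads (siCtrl, day 1) to 20301506 reads (siCtrl, day 2). The siCtrl library of day 2 stood apart by depth. Ratios are log2 of siKlf5 over siCtrl after adding 0.1 to each FPKM value, which understates the change of genes with low values. Their 95% exact (Clopper-Pearson) intervals cover counting error only. A transcript was called expressed at a mean FPKM of at least 1 over the 8 libraries, which 14312 transcripts and all 4 factors were. The targeted gene, Klf5, had a lower FPKM in the siKlf5 library on each day, with 35.1 against 224 on day 0, 160 against 381 on day 1, 192 against 614 on day 2 and 211 against 933 on day 3. Its log2 ratios lay between -2.67 and -1.25. Skeletal muscle markers matched the labelled line: 7 of 7 were expressed, with Itga7 (integrin alpha 7), Des (desmin) and Myh3 (embryonic myosin heavy chain) the highest by mean FPKM. Of 11 markers of leukocytes, endothelium, fat, epithelium, Schwann cells, smooth muscle and cartilage, 3 were expressed. Their summed FPKM was 13.0 to 16.2 in the siCtrl libraries and 7.66 to 29.0 in the siKlf5 libraries, and 4 to 7 of the 11 were at 0 in each library. Their part in the results was not tested.

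Only the promoters of Myog and Myf5 were matched, so these are shown, and the test of change over the time course played no part in their choice. They cover 250 bases before and 50 bases after the start site and were taken from RefSeq (GRCm38.p6). Myod1 and Myf6 were not matched. Capitals mark the E-box letters CANNTG, the kind of site that the factors themselves bind. The Myog promoter lies at chr1:134289754-134290053 on the plus strand, and that of Myf5 at chr10:107486085-107486384 on the minus strand.

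Myog: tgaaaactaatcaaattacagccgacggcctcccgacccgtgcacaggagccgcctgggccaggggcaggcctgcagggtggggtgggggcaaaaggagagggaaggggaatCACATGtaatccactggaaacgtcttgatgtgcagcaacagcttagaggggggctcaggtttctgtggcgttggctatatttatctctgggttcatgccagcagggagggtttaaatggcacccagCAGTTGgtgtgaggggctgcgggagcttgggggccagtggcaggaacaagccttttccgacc

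Myf5: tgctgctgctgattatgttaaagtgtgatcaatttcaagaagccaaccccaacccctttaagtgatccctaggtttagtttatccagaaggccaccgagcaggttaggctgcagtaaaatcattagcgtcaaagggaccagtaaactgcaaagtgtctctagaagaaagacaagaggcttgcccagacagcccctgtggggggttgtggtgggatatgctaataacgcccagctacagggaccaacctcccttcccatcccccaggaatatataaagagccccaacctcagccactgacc

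On the mm9 genome both sequences matched exactly once, at chr1:136186331-136186630 and chr10:106923141-106923440, and their start sites were those of the deposited transcripts. Both strands were searched. The Myog promoter held 2 E-boxes, CACATG beginning 138 bases and CAGTTG beginning 12 bases before the start. It also held 1 Mef2-type match (CTANNNNTA), CTATATTTA, 64 bases before the start. The Klf-type letters CCNCNCCC occurred there on the opposite strand in 2 overlapping matches, each GGGTGGGG, beginning 174 and 169 bases before the start. The Myf5 promoter held no E-box and no Klf-type match. It held 2 overlapping Mef2-type matches at 182 and 181 bases before the start, CTAGGTTTA and TAGGTTTAG, the latter on the opposite strand. Among 32851 promoters of the same length, 72.3% held an E-box and 39.6% at least 2, 21.0% held a Mef2-type match, and 49.5% held a Klf-type match and 30.6% at least 2. These matches are descriptions of letters only, and binding was not measured in the data analysed here.

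Myog was the most abundant of the factors in the time course as a whole and the one that changed most. The mean FPKM over the 8 libraries was 1462 for Myog, 493 for Myod1, 184 for Myf5 and 8.87 for Myf6. Among all 24016 transcripts these means ranked 161, 996, 3616 and 11726. The highest library exceeded the lowest by 7.0-fold for Myog and 6.20-fold for Myf6, against 1.40-fold for Myod1 and 1.53-fold for Myf5. The SD of log2 levels over the 8 libraries was 1.04 for Myog, 0.87 for Myf6, 0.19 for Myf5 and 0.15 for Myod1.

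**Figure D1:**
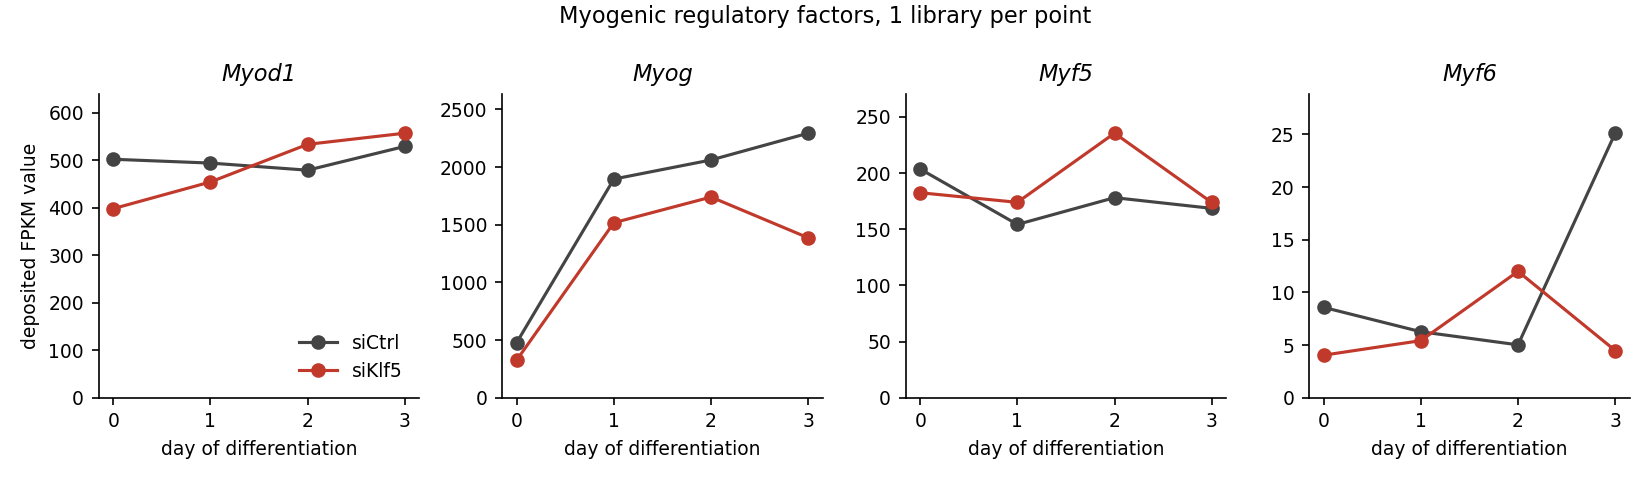
FPKM values (y axis, linear from 0, a separate scale for each gene) of the 4 myogenic regulatory factors against day of differentiation (x axis), with siCtrl in dark grey and siKlf5 in red. Each point is 1 library, without error bars because there were no replicates. Myog rises from day 0 to day 1 with both siRNAs and its siKlf5 points lie below the siCtrl points on all 4 days, whereas Myod1 stays between 398 and 557.

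The first question was how the factors changed as the cells differentiated. Myog encodes myogenin (NM_031189, chr1:136186581-136189125 of mm9, plus strand, 3 exons of 1475 bp in all). Its FPKM in siCtrl cells was 479, 1896, 2061 and 2293 on days 0, 1, 2 and 3. In siKlf5 cells it was 328, 1517, 1740 and 1386 on the same days. All 6 libraries of days 1 to 3 were above both libraries of day 0. Most of the rise took place between day 0 and day 1, with a log2 change of 1.98 (1.76 to 2.21) in siCtrl cells and 2.21 (1.94 to 2.49) in siKlf5 cells. The later steps were small, 0.12 (-0.01 to 0.26) and 0.15 (0.04 to 0.26) in siCtrl cells and 0.20 (0.04 to 0.36) and -0.33 (-0.48 to -0.17) in siKlf5 cells. The first of these turned to -0.011 under median-ratio and -0.024 under upper-quartile scaling. By rank among all transcripts, Myog moved from 1137 on day 0 to 137, 33 and 55 on days 1, 2 and 3 in siCtrl cells. In siKlf5 cells it moved from 1968 to 174, 112 and 170 on the same days. The rank of 33 was in the library that stood apart by depth.

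Each day was compared with day 0 in a limma fit over the 8 libraries with the siRNA as a block, in which the 2 siRNAs stand in for replicates of the course. Myog rose by 2.10 on the log2 scale on day 1 (SE 0.14, Benjamini-Hochberg adjusted p = 9.16e-05), by 2.26 on day 2 (adjusted p = 3.24e-05) and by 2.17 on day 3 (adjusted p = 3.07e-05). Thus 1 of the 4 factors was called higher on each of these days, where 6.82%, 11.5% and 12.8% of all expressed transcripts were. None of the 4 was called lower, against 9.93%, 11.6% and 17.6% of all expressed transcripts. The libraries of 1 siRNA may come from a single transfection. These p-values rest on the difference in course between the 2 siRNAs, not on a spread between replicates.

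Myod1 encodes MyoD (NM_010866, chr7:53631844-53634462, plus strand, 3 exons of 1849 bp). Its FPKM was 502, 494, 479 and 529 on days 0 to 3 in siCtrl cells, and 398, 454, 533 and 557 in siKlf5 cells. The siCtrl values spanned a narrow range, while the siKlf5 values were in order of day, the lowest on day 0. From day 0 to day 3 the log2 change was 0.08 (-0.15 to 0.30) in siCtrl cells and 0.48 (0.23 to 0.74) in siKlf5 cells. In the limma fit the changes from day 0 were 0.08, 0.18 and 0.28 on days 1, 2 and 3, and did not pass the test (adjusted p = 0.728, 0.390 and 0.153).

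Myf5, the other factor of dividing myoblasts (NM_008656, chr10:106919964-106923190, minus strand, 3 exons of 2078 bp), had an FPKM of 204, 154, 178 and 169 in siCtrl cells. In siKlf5 cells it was 182, 174, 235 and 174. The siKlf5 library of day 2 was the highest of the 8, and the siCtrl library of day 1 the lowest. In siKlf5 cells the step from day 1 to day 2 was 0.44 on the log2 scale (0.04 to 0.84), and that from day 2 to day 3 was -0.44 (-0.80 to -0.08). Over both siRNAs the changes from day 0 were -0.23, 0.09 and -0.17 on days 1, 2 and 3 (limma adjusted p = 0.335, 0.726 and 0.430).

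Myf6 encodes MRF4, the factor of mature fibers (NM_008657, chr10:106929916-106931785, minus strand, 3 exons of 1243 bp), and lies 6.73 kb from Myf5. Its FPKM was 8.59, 6.27, 5.03 and 25.1 in siCtrl cells on days 0 to 3, and 4.05, 5.43, 12.0 and 4.49 in siKlf5 cells. The siCtrl library of day 3 was thus the highest. These values rest on few reads, 21, 10, 21 and 64 in siCtrl cells and 9, 9, 29 and 10 in siKlf5 cells. The step from day 2 to day 3 in siCtrl cells was 2.30 on the log2 scale (0.48 to 4.59), the only Myf6 step between adjacent days whose counting interval lay apart from 0. The changes from day 0 in the limma fit were -0.02, 0.39 and 0.84, with adjusted p = 1.00, 0.797 and 0.509. At this depth a change of Myf6 between most libraries was not detectable.

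**Figure D2:**
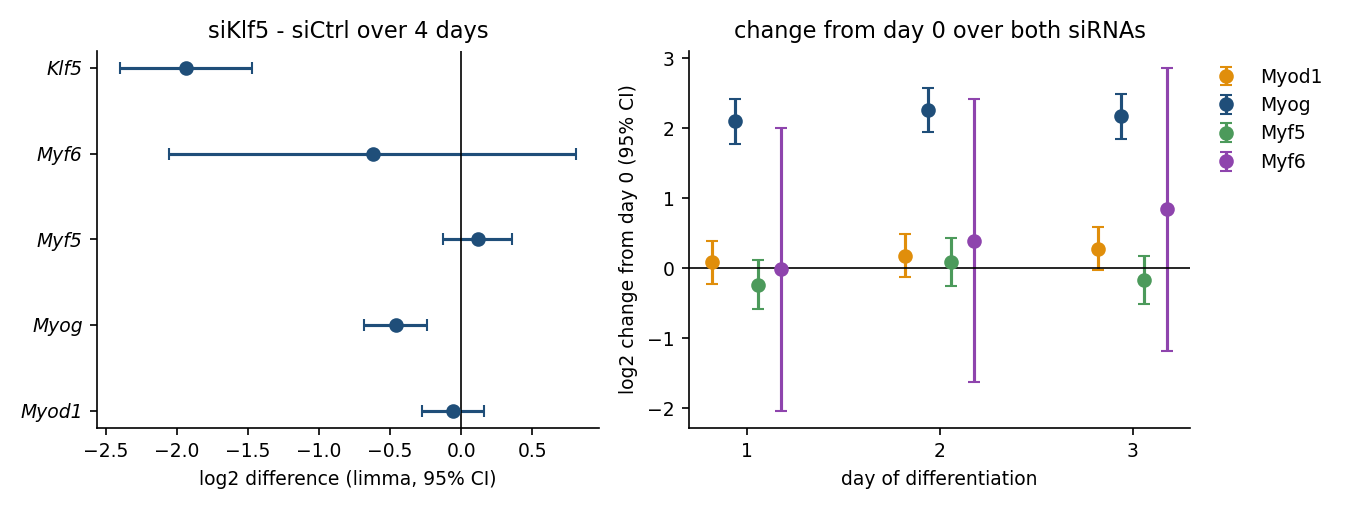
Left, log2 difference of siKlf5 from siCtrl over the 4 days (x axis) for each factor and for Klf5. Right, log2 change of each factor from day 0 (y axis) on days 1, 2 and 3 over both siRNAs. Points are limma estimates from 8 libraries and bars are 95% confidence intervals. On the right the Myog points lie between 2.10 and 2.26, and the bars of the other 3 genes cross 0.

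The makeup of the factors by level shifted with the rise of Myog. On day 0 Myod1 made up 42.1% of their summed FPKM in siCtrl cells, Myog 40.2%, Myf5 17.1% and Myf6 0.720%. In siKlf5 cells of day 0 the shares were 43.6% for Myod1, 35.9% for Myog and 20.0% for Myf5. From day 1 on Myog held 74.3%, 75.7% and 76.0% in siCtrl cells, and 70.5%, 69.0% and 65.4% in siKlf5 cells. The summed FPKM was 1193 on day 0 and 3016 on day 3 in siCtrl cells, and 912.0 and 2122 in siKlf5 cells.

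On day 0 the order of Myog and Myod1 could not be told, since the ratio of their levels was 0.955 (0.801 to 1.14) in siCtrl cells and 0.823 (0.662 to 1.02) in siKlf5 cells. On day 3 Myog exceeded Myod1 by 4.33-fold (3.83 to 4.91) in siCtrl cells and by 2.49-fold (2.17 to 2.87) in siKlf5 cells. Below them the order was the same in all 8 libraries. Myod1 exceeded Myf5 by 2.18-fold to 3.2-fold, Myf5 exceeded Myf6 by 6.71-fold to 45.1-fold, and no counting interval of these ratios reached 1.

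**Figure D3:**
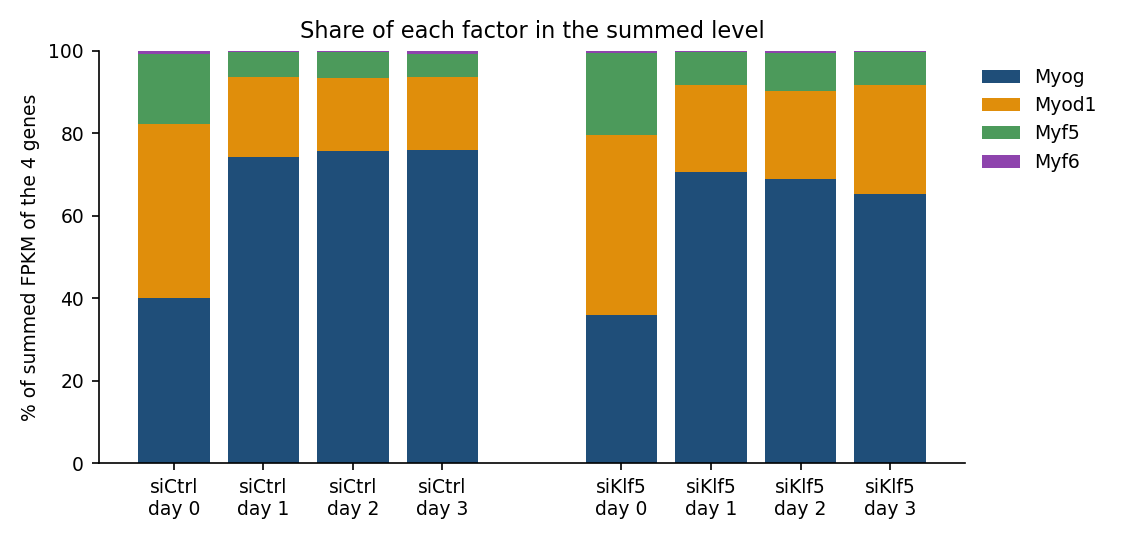
Share of each factor in the summed FPKM of the 4 genes (y axis, %) in each of the 8 libraries (x axis, siRNA and day), 1 bar per library. Myog takes 40.2% and 35.9% on day 0 and from 65.4% to 76.0% on days 1 to 3, and Myf6 is a thin line at the top.

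The second question was how knockdown of Klf5 changed the factors. Myog was lower in the siKlf5 library on each of the 4 days, while Myod1, Myf5 and Myf6 were lower on some days and higher on others. The log2 ratio of Myog was -0.55 (-0.86 to -0.24) on day 0, -0.32 (-0.50 to -0.15) on day 1, -0.24 (-0.37 to -0.12) on day 2 and -0.73 (-0.87 to -0.58) on day 3. No counting interval of these reached 0. In bulk RNA, fewer cells with myogenin and less myogenin RNA per cell cannot be told apart. Of the 4 factors 1 was lower on all 4 days, as were 9.03% of the expressed transcripts. None was higher on all 4 days, as were 9.05%.

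By a 1.5-fold difference, Myog was past the threshold on day 3 only. Myf6 was past it as lower on days 0 and 3 and as higher on day 2, on the few reads given above. The expressed transcripts past 1.5-fold as lower were 11.1%, 11%, 13% and 12.5% on days 0, 1, 2 and 3, and as higher 9.22%, 16.4%, 7.69% and 10.7%. Past 1.5-fold in opposite directions on different days were 14.9% of expressed transcripts, and Myf6 was 1 of these.

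The highest level of Myog in siKlf5 cells, 1740 on day 2, was below each siCtrl level of days 1 to 3. The siKlf5 level of day 3 was 1.53 on the log2 scale (1.31 to 1.76) above the siCtrl level of day 0. It was 0.45 below that of day 1 (a log2 ratio of -0.45, -0.62 to -0.29) and lay at a log2 ratio of -0.57 (-0.71 to -0.44) to that of day 2. The difference between siRNAs was widest on day 3, where Myog was higher than on day 2 in siCtrl cells and lower in siKlf5 cells.

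For Myod1 the log2 ratio was -0.33 (-0.59 to -0.08) on day 0, -0.12 (-0.42 to 0.18) on day 1, 0.16 (-0.05 to 0.36) on day 2 and 0.07 (-0.15 to 0.30) on day 3. On reads divided by 6 only the day 0 interval lay apart from 0. For Myf5 the ratios were -0.16 (-0.53 to 0.21), 0.17 (-0.31 to 0.66), 0.40 (0.10 to 0.71) and 0.04 (-0.34 to 0.43), and only that of day 2 lay apart from 0. For Myf6 they were -1.07 (-5.30 to 2.05), -0.21 (-4.78 to 4.15), 1.24 (-1.05 to 3.75) and -2.46 (-6.14 to -0.14). On day 3 the Myf6 interval lay below 0, from 64 reads in siCtrl and 10 in siKlf5 cells. Of the 16 ratios of the 4 factors, 7 had an interval apart from 0 on reads divided by 6 and 11 on single reads. The 4 gained were Myod1 on day 1 (-0.24 to -0.0016) and day 2 (0.072 to 0.24), Myf5 on day 0 (-0.31 to -0.0095) and Myf6 on day 2 (0.39 to 2.14).

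**Figure D4:**
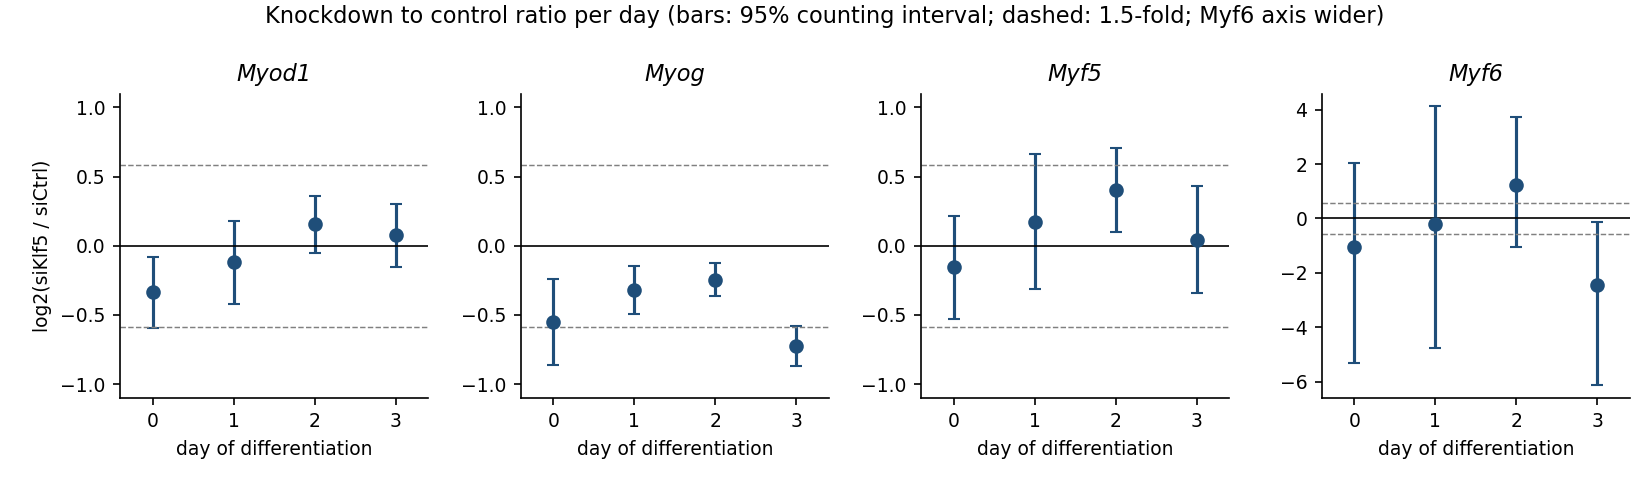
Log2 ratio of siKlf5 to siCtrl (y axis) of each factor on days 0 to 3 (x axis). Points are ratios of 1 library to 1 library, bars are 95% counting intervals, dashed lines mark 1.5-fold, and the Myf6 axis is wider. The 4 Myog points lie between -0.73 and -0.24, while the points of Myod1, Myf5 and Myf6 lie on both sides of 0.

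With the 4 days standing in for replicates and the day as a block, the limma difference of siKlf5 from siCtrl was -0.46 for Myog (SE 0.10, 95% confidence interval -0.68 to -0.24), lower on 4 of 4 days. Its unadjusted p was 0.00148, rank 93 among 14312 transcripts, and it did not pass after adjustment (Benjamini-Hochberg adjusted p = 0.228). Over all expressed transcripts limma called 8 lower (0.0559%) and 1 higher (0.00699%), Klf5 among the former (-1.94, SE 0.20, adjusted p = 0.0244), and 9.6% had an unadjusted p under 0.05. None of the 4 factors was called, and by unadjusted p 1 of the 4 was under 0.05. The differences were -0.06 for Myod1 (SE 0.09, adjusted p = 0.883), 0.12 for Myf5 (SE 0.11, adjusted p = 0.760) and -0.62 for Myf6 (SE 0.62, adjusted p = 0.783). They were lower on 2, 1 and 3 of 4 days respectively. The exact two-sided sign-flip permutation p over the 4 days was 0.125 for Myog, 0.75 for Myod1, 0.375 for Myf5 and 0.5 for Myf6, and 0.125 is the smallest that 4 days can give. The libraries of 1 siRNA may come from a single transfection. These SEs, intervals and p-values thus rest on the spread of the difference between days, not between replicates. In limma the variance of each transcript was also drawn toward that of transcripts of similar level.

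The counting step was set to keep at most 3 reads per position, which on both strands would allow 6 reads per base. The recovered reads went past that figure for 7 to 48 transcripts per library, so how the limit acted is not known from the table. Myog had 0.586 to 6.92 reads per base of exon, the most in the siCtrl library of day 2. The 322 transcripts with more than 3 reads per base in that library had a median log2 ratio of siKlf5 to siCtrl of 0.02, -0.08, 0.31 and 0.04 on days 0 to 3. The part of this limit in the Myog ratios was not tested.

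The partners, inhibitors, upstream regulators, cofactors and targets of the factors were followed as gene lists. These were written from general knowledge, with earlier results of these data known. Within these lists limma called 0 genes for the siRNA difference after adjustment over all expressed transcripts. The lists do not hold every muscle gene. Among the 9 transcripts called were 2 contractile genes outside them, Myl4 (a myosin light chain, -1.03, adjusted p = 0.00659) and Myh4 (a fast myosin heavy chain, 1.5, adjusted p = 0.0185), named after their values were seen. By unadjusted p under 0.05, where 9.6% of all expressed transcripts lay, the counts were 1 of 3 partners, 4 of 15 expressed inhibitors (3 lower and 1 higher), 0 of 13 expressed upstream regulators, 3 of 24 expressed cofactors (1 lower and 2 higher) and 12 of 36 targets (9 lower and 3 higher). The shares of all expressed transcripts past 1.5-fold, against which the counts per list below are to be read, were 11.1%, 11%, 13% and 12.5% lower and 9.22%, 16.4%, 7.69% and 10.7% higher on days 0 to 3. By limma on day 3 against day 0 they were 17.6% lower and 12.8% higher.

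The E proteins are the dimerization partners. Of 3, none was past 1.5-fold on any day. Tcf3 (E2A) fell from an FPKM of 540.0 to 348 in siCtrl cells and from 515 to 335 in siKlf5 cells between days 0 and 3, a limma change of -0.63 (SE 0.10, adjusted p = 0.00257). Tcf4 (E2-2) rose by 0.78 on the same comparison (SE 0.15, adjusted p = 0.00687), and had an siRNA difference of 0.35 (SE 0.11, adjusted p = 0.372). Tcf12 (HEB) had a day 3 change of 0.09 (adjusted p = 0.687).

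Inhibitors of the factors comprise Id proteins, which sequester E proteins, and repressors that compete for E-boxes or act through them. Of 16 such genes 15 were expressed. On days 0, 1, 2 and 3 in turn 1, 1, 2 and 3 were lower past 1.5-fold in siKlf5 cells and 2, 2, 1 and 1 were higher. The genes highest by mean FPKM were Bhlhe40 (a repressor of the Hairy type), Snai2 (Slug) and Id3. Id3 was 424 on day 0 and 76.5 on day 1 in siCtrl cells, and 329 and 146 in siKlf5 cells. By limma 5 were lower on day 3 than on day 0, namely Id1, Id2, Id3, Twist2 and Msc, and 4 were higher, namely Bhlhe40, Hes1, Heyl and Zeb1, named after their values were seen, where 17.6% and 12.8% of all expressed transcripts were. The fall of Id3 was -1.35 (SE 0.27, adjusted p = 0.00713) and the rise of Bhlhe40 was 0.88 (SE 0.13, adjusted p = 0.00187). Snai2 had a change of -0.18 (adjusted p = 0.532). The inhibitors with the largest mean ratios to siCtrl, Mdfi and Id4, were at 0 in 3 and 5 of the 8 libraries, and no fold is given.

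Upstream regulators of the factors include paired-box and homeobox factors of muscle precursors and their coactivators. Of 21, 13 were expressed, and 2, 2, 1 and 2 were lower and 2, 0, 2 and 0 higher past 1.5-fold on days 0 to 3. Foxo3, a forkhead factor, was among the 3 highest, with a mean FPKM of 93.4. On day 3, 1 was lower than on day 0 by limma and 4 were higher, Foxo3 among the latter with a rise of 0.88 on the log2 scale (SE 0.15, adjusted p = 0.00352). Of those with the largest mean ratios, Gli1 was at 0 in 1 library and lower in siKlf5 on 4 of 4 days at an FPKM of at most 9.48, and Lbx1 was at 0 in 3 libraries.

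Cofactors include the Mef2 factors, which bind with the myogenic factors at muscle genes, chromatin remodelers and helicases. Of 25, 24 were expressed. Lower past 1.5-fold were 1, 1, 1 and 0 on days 0 to 3, and higher were 0, 1, 0 and 0. Ddx5 and Ddx17 (RNA helicases) and Mef2d were the highest, with mean FPKM of 1317, 717 and 428. On day 3, 6 of 24 were higher than on day 0 by limma and 3 lower, against 12.8% and 17.6% of all expressed transcripts. Mef2d rose by 0.70 (SE 0.12, adjusted p = 0.00409). Tead4, a factor that binds MCAT elements of muscle genes, rose by 1.98 (SE 0.15, adjusted p = 7.95e-05). Its FPKM was 76.9, 183, 370 and 298 in siCtrl cells, and 58.3, 106, 223 and 235 in siKlf5 cells. It was lower on 4 of 4 days in siKlf5 cells, with an siRNA difference of -0.57 (SE 0.11, limma adjusted p = 0.172). Smarcd3 (BAF60c) had an siRNA difference of 0.31 (SE 0.12, adjusted p = 0.477).

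Targets comprise genes of the contractile apparatus, the acetylcholine receptor, calcium handling and fusion. All 36 were expressed. On days 1, 2 and 3, 32, 32 and 33 of the 36 rose relative to day 0 by limma, against 6.82%, 11.5% and 12.8% of all expressed transcripts, and none fell. The median change on day 3 was 3.75 on the log2 scale, against -0.09 over all expressed transcripts. Acta1 (skeletal actin), Tnnt2 (cardiac troponin T) and Mylpf (fast myosin light chain) were the highest. Acta1 had an FPKM of 351 on day 0 and 4150.1 on day 3 in siCtrl cells, and 363 and 4351 in siKlf5 cells. By limma it rose by 3.57 on the log2 scale by day 3 (SE 0.14, adjusted p = 3.8e-06), Tnnt2 by 2.86 and Mylpf by 3.3.

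In siKlf5 cells 11, 3, 2 and 2 of the 36 targets were lower past 1.5-fold on days 0, 1, 2 and 3, and 0, 0, 0 and 1 were higher. The shares over all expressed transcripts are those given above. The median log2 ratio of the targets was -0.27, 0.00, 0.17 and 0.00 on these days, against 0.00, 0.03, -0.03 and 0.00 over all expressed transcripts. Day 0 thus held the most targets past the threshold. The 322 transcripts with more than 3 reads per base in the siCtrl library of day 2, described above, are a further comparison. Their median log2 ratios were 0.02, -0.08, 0.31 and 0.04 on days 0 to 3. The part of the limit per position in the target ratios was not tested. Cav3 (caveolin 3, of the muscle membrane) was lower on 4 of 4 days, with an FPKM of 3.53, 56.8, 217 and 316 in siCtrl cells and 2.91, 17.6, 95.9 and 119 in siKlf5 cells. It rose by 5.87 on the log2 scale from day 0 to day 3 (SE 0.35, limma adjusted p = 2.33e-05). Its siRNA difference was -1.14 (SE 0.25, limma adjusted p = 0.236). Chrne (an acetylcholine receptor subunit) was at 0 in 3 libraries.

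The transcripts most like each factor were sought by the root-mean-square difference of centred log2 FPKM over the 8 libraries, among 11591 transcripts with a mean FPKM of at least 10. Nearest to Myog were Tmem205 at 0.15, Tmod1 (tropomodulin 1, which caps actin filaments) at 0.27, and Jph2 (junctophilin 2), Kdm7a and Synpo2l at 0.28, against a median of 1.06. Nearest to Myod1 were Ndufa6, Atg3, Rabggta, Ppp3r1 and Dvl1 at 0.05 to 0.08, against a median of 0.34. Nearest to Myf5 were Rcbtb1, Cyhr1, Ndufb5, 1810037I17Rik and Tbc1d10a at 0.06 to 0.08, against a median of 0.32. For Myf6 the nearest, Defb41, BC020402, Dcxr, Rell2 and Fgfrl1, were at 0.43 to 0.53, against a median of 0.89. The likeness is a description over libraries that share their depth and scaling. Some of the nearest rested on few reads, Tmem205 on as few as 15 in a library and Defb41 on as few as 3.

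The genes around the factors within 150 kb were followed next. Of 9 around Myog, Chit1 and 4933406M09Rik were below the cutoff for expression. In siKlf5 cells 4 of the 9 were lower on each day (Mybph, Adora1, Ppfia4 and Tmem183a), and the first 3 of these rose over the course. Of all expressed transcripts, 9.03% were lower on each day. Mybph (myosin binding protein H, 88.8 kb away) had an FPKM of 143 on day 0 and 3337 on day 3 in siCtrl cells, and 66.8 and 1724 in siKlf5 cells. Adora1 (adenosine receptor A1, 55.1 kb away) was 17.7 and 417, and 6.98 and 201, with log2 ratios of -1.33, -0.57, -0.71 and -1.05 on days 0 to 3. Mybph and Adora1 overlap by 2.02 kb on opposite strands and reads of both strands were counted, so their values cannot be fully told apart. Ppfia4 (liprin alpha 4, 4.24 kb away) was 12.5 and 200.3, and 12.2 and 112, with ratios of -0.03, -0.26, -0.50 and -0.84. By limma the 3 genes rose from day 0 to day 3 by 4.61 (Mybph, SE 0.16, adjusted p = 2.19e-06), 4.69 (Adora1, SE 0.20, adjusted p = 4.53e-06) and 3.59 (Ppfia4, SE 0.23, adjusted p = 3.03e-05) on the log2 scale. Their siRNA differences of -0.79, -0.92 and -0.41 did not pass (limma adjusted p = 0.0868, 0.115 and 0.477). Tmem183a (53.5 kb away) had a day 3 change of -0.13 (adjusted p = 0.421). Chil1 rose by 5.79 (SE 1.1, adjusted p = 0.00589), was at 0 in both libraries of day 0 and lower in siKlf5 cells on days 1 to 3. Cyb5r1 rose by 0.79 (SE 0.13, adjusted p = 0.00324) and was lower on days 0, 1 and 3 and higher on day 2. By contrast Adipor1 (adiponectin receptor 1, 123 kb away) was between 519 and 622 in all 8 libraries, with ratios of -0.05 to 0.10. The genes were named after their values were seen.

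**Figure D5:**
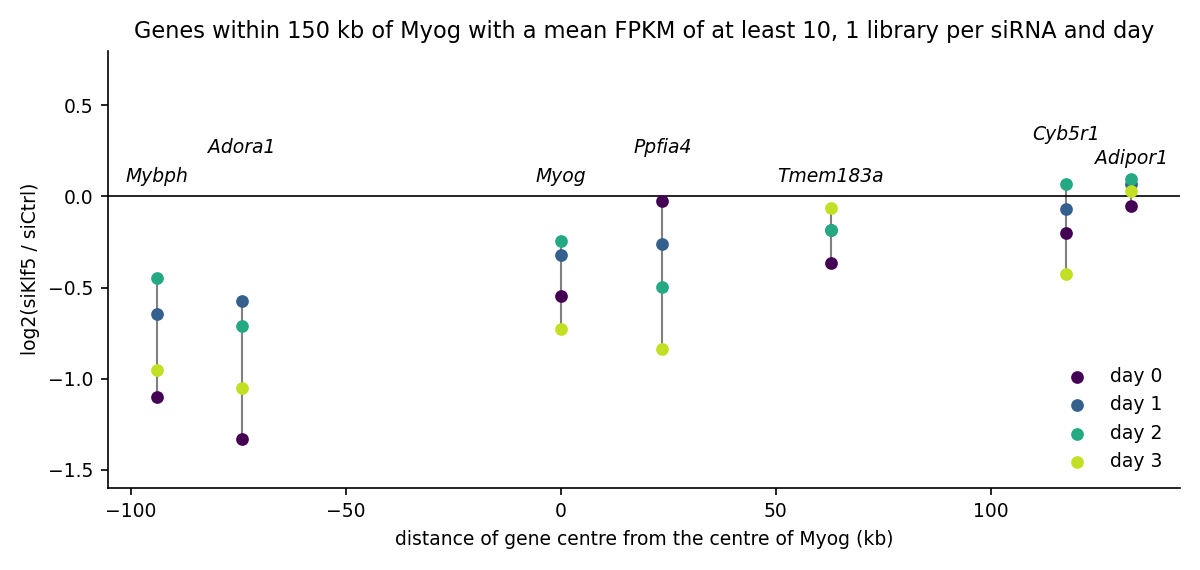
Log2 ratio of siKlf5 to siCtrl (y axis) of Myog and the 6 genes within 150 kb with a mean FPKM of at least 10, against distance of the gene centre from the centre of Myog (x axis, kb). Each point is 1 day, colored from day 0 (dark) to day 3 (light), and the grey line spans the 4 days. Mybph and Adora1 lie below Myog on day 0 and Adipor1 lies near 0.

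Around Myod1, 4 genes lay within 150 kb, of which Otog (otogelin, 65.0 kb away) rose from 1.22 to 62.7 in siCtrl and from 1.40 to 26.9 in siKlf5 cells between days 0 and 3, a limma change of 4.87 (SE 0.52, adjusted p = 0.000425). Around Myf5 and Myf6, Ptprq was between 0.467 and 3.48 and Lin7a between 0 and 1.34 in the 8 libraries.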

How the data were processed

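Poly(A) RNA of C2C12 cells was analysed in 8 libraries, 1 for each siRNA on each day. Another 6 samples, from ChIP-seq, were not analysed here. The authors sequenced both ends, aligned reads to mm9 with STAR and counted them on RefSeq exons with HOMER, on both strands, keeping at most 3 reads per position and 1 transcript per gene. The deposited FPKM values were scaled to a set total of 1e+07 per library. The 8 deposited log2 columns were not used, and 1 of them carries no day. The limit per position can hold down highly covered transcripts, although some exceed it in the recovered reads, and counting both strands lets overlapping genes share reads.

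Reads were recovered from FPKM, exon length and the smallest step of each library, and all values checked lay within 0.1 of a whole number. Recovered reads ranged from 7850497 to 20301506 per library. Transcripts with 6 reads outnumbered those with 5 by 2.83 to 10.0 times, so intervals were computed on reads divided by 6. Log2 ratios used a pseudocount of 0.1. limma 3.58.1 (R 4.3.3) was fitted to log2(FPKM + 0.1) of 14312 transcripts over 8 libraries, with siRNA and day as factors. Each transcript had 3 residual degrees of freedom, and variances were moderated over all transcripts with a trend by level. The threshold was an adjusted p of 0.05. Exact permutation tests and intervals used Python 3.11.15 and scipy 1.17.1, and calculations were tested on simulated data. Counts of transcripts past 1.5-fold carry no test. Alternatives were other pseudocounts, scalings, filters, cutoffs and left-out days.

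Of each gene list, the 3 genes with the highest mean FPKM and the 2 with the largest mean ratio are named, except some that are not reported here. For each factor the 5 transcripts nearest in profile are named. The members and lists were chosen with earlier results of these data known.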

Additional observations from a re-analysis of the deposited data

Results flagged for a closer look

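The following values differ in direction between siRNAs or between days. Single libraries stand behind each of them, and in no case was the difference tested. For Myog, the log2 change from day 2 to day 3 was 0.15 in siCtrl and -0.33 in siKlf5 cells. For Myod1, the ratio of siKlf5 to siCtrl was -0.33 on day 0 and 0.16 on day 2, the change from day 0 to day 1 was -0.023 in siCtrl and 0.19 in siKlf5 cells, and that from day 1 to day 2 was -0.044 and 0.23. The former pair did not differ in direction under median-ratio scaling (0.12 and 0.27) or upper-quartile scaling (0.14 and 0.31). For Myf5, the ratio was -0.16 on day 0 and 0.40 on day 2. For Myf6, the ratio was 1.24 on day 2 and -2.46 on day 3. The Myf6 changes in siCtrl and siKlf5 cells were -0.45 and 0.41 from day 0 to day 1, -0.31 and 1.13 from day 1 to day 2, and 2.30 and -1.40 from day 2 to day 3, on 9 to 64 reads per library.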

How the results depend on the processing

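Under 2 other pseudocounts and 2 other scalings, the 16 ratios of siKlf5 to siCtrl and the 24 changes from day 0 of the 4 factors stayed within the counting interval of the reported value. Intervals on single reads lay apart from 0 for 11 of the 16 ratios, against 7. The scalings raised every change from day 0 to day 1 by 0.084 to 0.16 on the log2 scale, turned none of the 16 ratios and turned 4 of 24 steps between adjacent days: in siCtrl cells Myod1 from day 0 to 1 (0.12 and 0.14), Myog from day 1 to 2 (-0.011 and -0.024) and Myf5 from day 2 to 3 (0.017 under median-ratio scaling only), and in siKlf5 cells Myf5 from day 0 to 1 (0.015 and 0.054). Myog stayed higher on days 1, 2 and 3 than on day 0 in every limma alternative with a test (adjusted p at most 0.0284). The siRNA difference of Myog stayed between -0.53 and -0.37, and its adjusted p was 0.181 to 1.00 over 11 alternatives, of which those with 1 day left out gave 0.566 to 0.693.

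The siRNA difference of Myod1 lay between -0.13 and 0.036 with 1 day left out, and was 0.036 without day 0. For Myf6 the change on day 1 was 0.10 under median-ratio and 0.12 under upper-quartile scaling, and 0.41 in siKlf5 cells alone. In siCtrl cells alone, where no test is possible, Myod1 was at -0.023 on day 1 and -0.068 on day 2, Myf5 at -0.19 on day 2 and Myf6 at -0.76 on day 2.

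Transcripts past the threshold as lower and higher in siKlf5 cells on day 0 were 2644 and 2374 with no filter, 1001 and 743 with a mean FPKM of at least 5, and 968 and 793 at 2-fold. On day 1 they were 2531 and 3261, 1040 and 1671, and 924 and 1300 at 2-fold. On day 2 they were 2978 and 2276, 1138 and 551, and 1039 and 627. On day 3 they were 2849 and 2573, 1128 and 933, and 1069 and 893.

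For the siRNA difference limma called 8 lower and 1 higher, 0 and 0 with no filter (1435 at unadjusted p under 0.05), and 0 and 0 with each day left out in turn (980 to 1147 at unadjusted p under 0.05). Without the replicate block, that is, without pairing by day, it called 1 and 0 (349 at unadjusted p under 0.05). The labels give 1 library per group, and the block is the day.

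For day 1 against day 0 limma called 1421 lower and 976 higher, 895 and 1294 under upper-quartile scaling, 969 and 1195 under median-ratio scaling, and 371 and 282 with no filter. For day 2 it called 551 and 655 with no filter. For day 3 it called 2516 and 1831, 1825 and 2175 under median-ratio scaling, 1878 and 2151 under upper-quartile scaling, and 1256 and 905 with no filter. Depth limits Myf6 most, with 9 to 64 reads, and the lack of replicates limits every ratio of a single day.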
